A study of Mus musculus with 10 samples.

Results

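The genes described here encode 10 surface proteins by which mouse hematopoietic stem cells are recognised: Ly6a, Slamf1, Cd34, Procr, Esam, Eng, Cd27, Cd81, Cd82 and Alcam. They were chosen by gene symbol from a table of 24544 symbols. All 10 were in the table, and all 10 were among the 12203 genes that passed the filter on low counts. Bulk RNA-seq libraries compared 2 fractions of Hoxb5+ long-term hematopoietic stem cells from the bone marrow of Hoxb5-mCherry reporter mice aged 2 to 3 months. Cells of both fractions were sorted as positive for cKIT, SCA1, CD150 and Hoxb5, and as negative for lineage antigens, CD48, FLK2 and CD34. They differed in surface neogenin-1: 5 libraries came from NEO1+ and 5 from NEO1- cells. Each library held 250 to 500 cells pooled from 2 mice. The labels do not say whether different libraries shared mice, so p-values measure the spread between these libraries, which may in part be technical.

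Long-term stem cells are purified with antibodies against surface proteins because no single protein marks them alone. SCA1 and CD150 are kept on these cells, whereas CD34, CD48 and FLK2 appear on the surface as cells pass to multipotent progenitors. Proteins outside the gate, such as the endothelial protein C receptor, endoglin and ESAM, are also used to enrich stem cells, and several of them are shared with blood vessel lining. The comparison asks whether the transcripts of these markers, of which only SCA1, CD150 and CD34 were selected on as proteins, differ between NEO1+ and NEO1- cells. In bulk samples, fewer cells of a type and less RNA per cell cannot be told apart.

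Library totals ran from 21.2 to 38.95 M counts. The gene of the sorted protein, Neo1, was at 12.5 to 64.8 CPM (counts per M counts of the library, scaled between libraries by TMM) in NEO1+ libraries and at 4.56 to 18.9 CPM in NEO1- libraries, with NEO1+ library 4 inside the range of the other group. The mean log2 CPM of 20 genes of G2 and M phase was 4.37 to 5.27 in NEO1+ and 1.29 to 3.63 in NEO1- libraries. Genes with a count numbered 12800 to 13808 in NEO1+ and 11477 to 13147 in NEO1- libraries, and the ribosomal RNA gene Rn45s took 27.9% to 37.7% and 30.7% to 42.4% of the counts. The part of cell division and of library quality in the values below was not tested. Fits with genes detected as a covariate and without Rn45s were run as alternatives. Genes detected ran higher in NEO1+ libraries, so that covariate cannot tell library quality from group. Leaving out the row of Rn45s does not change the quality of a library.

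None of the 10 surface marker genes passed an adjusted p of 0.05 between NEO1+ and NEO1- cells (edgeR quasi-likelihood test). The same test called 0 of all 12203 genes, a share of 0%, while 806 had an unadjusted p under 0.05. DESeq2 called 146 genes and limma-voom 2, none of them a marker. At an unadjusted p under 0.05, 1 of the 10 markers was reached, against 6.60% of all genes tested, so the count of markers was near that background. It was Cd27, with the lower mean in NEO1+, and its unadjusted p stayed under 0.05 in 12 of 20 alternatives. The log2 fold change of NEO1+ over NEO1- was above 0 for 4 markers and below 0 for 6, against 51% of all genes tested above 0. Its median over the 10 was -0.07, against 0.01 over all genes tested. In 0 of the 10 were the groups free of overlap, against 2.48% of all genes tested (1.35% with NEO1+ higher and 1.13% with NEO1+ lower).

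**Figure D1:**
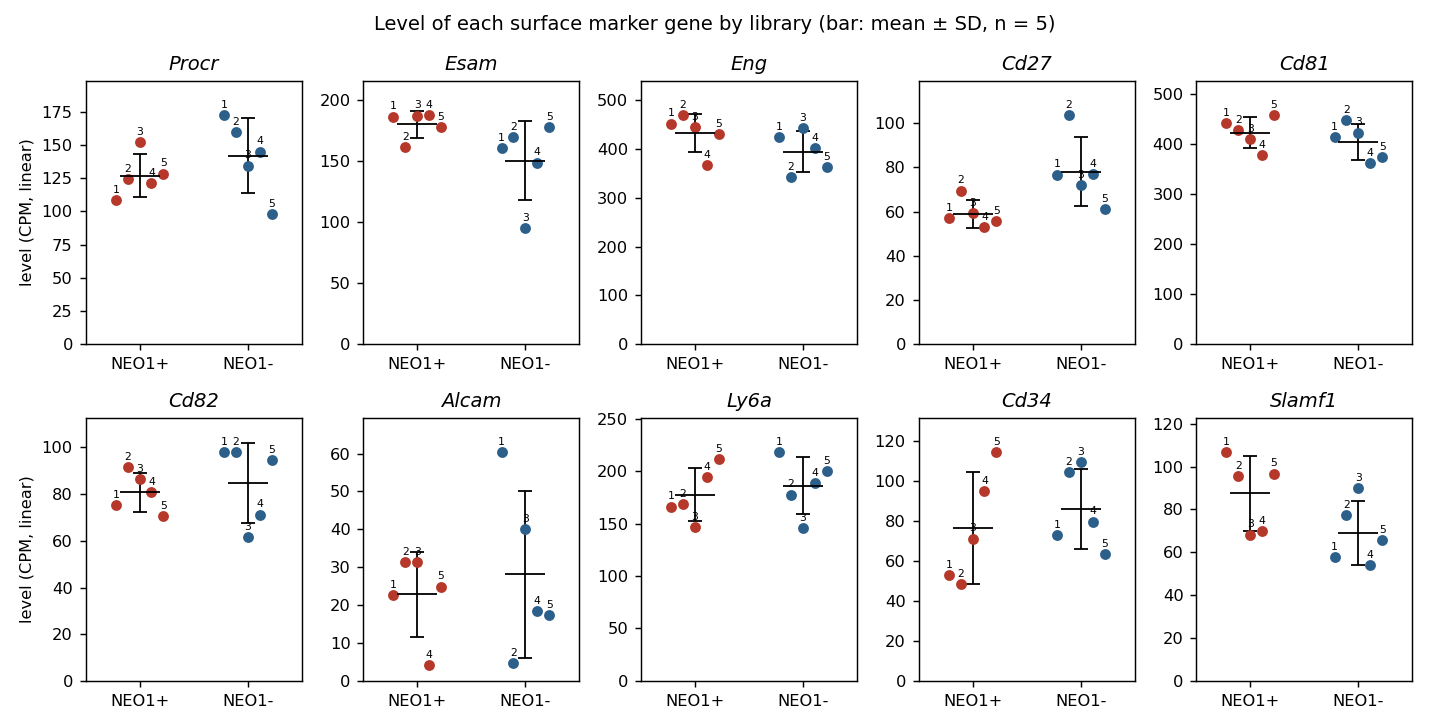
Level of each surface marker gene in each library (CPM, linear axes from 0), with NEO1+ in red, NEO1- in blue, the replicate number beside each point and bars for the mean ± SD of 5 libraries. The ranges of the groups overlap in all 10 panels, and Alcam ranges from 4.08 to 60.4 CPM.

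The intervals set limits of unlike width on the size of a difference. The 95% interval of the fold change lay within a 2-fold change in either direction for 9 of the 10 genes and within a 1.5-fold change for 5 of them. The narrowest belonged to Cd81, from 0.918-fold to 1.19-fold, and the widest to Alcam, from 0.328-fold to 2.01-fold. A p that misses the threshold does not show that the groups are alike. The intervals bound the size of any difference that these libraries leave room for.

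**Figure D2:**
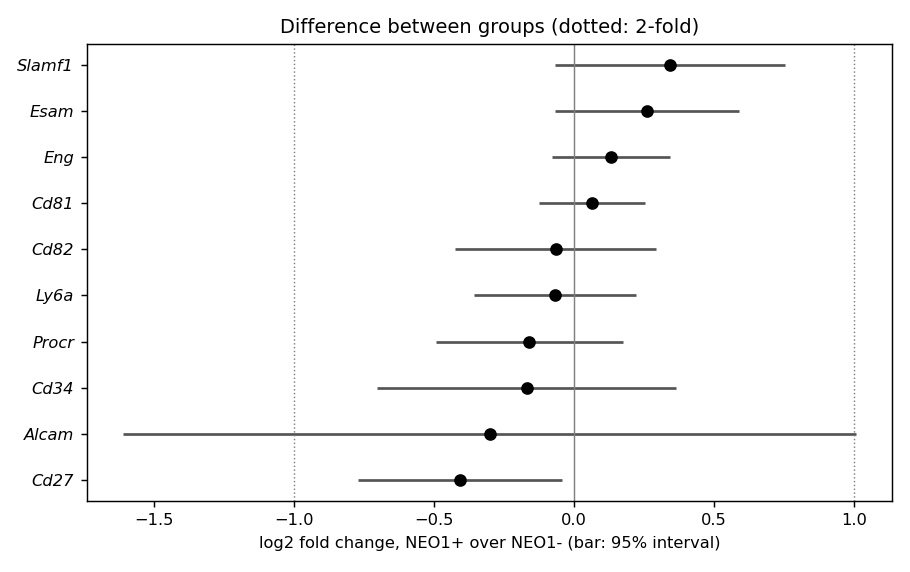
Log2 fold change of NEO1+ over NEO1- for each surface marker (points) with its 95% interval from the edgeR fit (bars) and dotted lines at a 2-fold change. Only the interval of Alcam crosses the dotted lines, from -1.61 to 1.01, and only that of Cd27 lies wholly on one side of 0, from -0.77 to -0.04, without adjustment for the number of genes.

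The first group comprises the markers of the sorting gate. Ly6a encodes SCA1, a small glycolipid-anchored protein of the Ly6 family. It averaged 178 ± 25.4 CPM (NEO1+) against 186 ± 27.2 CPM (NEO1-) (SD, n = 5 each), ranging from 147 to 211 CPM and from 145 to 218 CPM. The ranges of the groups thus nearly coincided, and the log2 fold change was -0.07 (SE 0.13, adjusted p 0.998). Of the 50-base stretches of the Ly6a transcripts, 19.0% also occur in transcripts of other genes, mostly the neighbouring family member Ly6c1. Ly6c1 itself had at most 1.09 CPM in any library.

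Slamf1 encodes CD150, a receptor of the SLAM family that binds itself on neighbouring cells. NEO1+ libraries 1 to 5 had 107, 95.7, 68.3, 69.9 and 96.8 CPM. NEO1- libraries 1 to 5 had 57.9, 77.5, 89.9, 54.1 and 65.8 CPM. Libraries 1, 2 and 5 of NEO1+ lay above all NEO1- libraries, while libraries 3 and 4 fell inside their range. The log2 fold change was 0.34 (SE 0.19, 95% interval -0.07 to 0.75, adjusted p 0.823), the most positive of the 10. With genes detected added as a covariate it was 0.69, also without passing (unadjusted p 0.0161, adjusted p 0.9998). Its unadjusted p was under 0.05 in 2 of 20 alternatives, with that covariate and without NEO1- library 3.

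Cd34 encodes a sialomucin that is present on progenitors and on most human stem cells, and it was gated out at the protein level. Its transcript was nevertheless found in all 10 libraries, at 1105 to 3948 counts. NEO1+ libraries 1 to 5 had 53.1, 48.6, 71.2, 95.2 and 115 CPM. NEO1- libraries 1 to 5 had 73.2, 105, 110, 79.8 and 63.4 CPM. Both groups covered much the same span, with the lowest and the highest value in NEO1+. The log2 fold change was -0.17 (SE 0.25, adjusted p 0.997), and it moved to -0.04 without NEO1+ library 2 and to -0.36 without NEO1+ library 5. Cd34 was the only marker with the larger spread in NEO1+ (SD of log2 CPM 0.53, against 0.34 in NEO1-).

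Kit, the receptor for stem cell factor and the other positive gate, averaged 451 ± 45.2 CPM (NEO1+) against 498 ± 59.1 CPM (NEO1-) (SD, n = 5 each; adjusted p 0.899). The other transcripts of the negative gate were much lower. Cd48, a ligand within the SLAM family, had 0 counts in 5 libraries and reached 8.69 CPM (NEO1+) against 8.20 CPM (NEO1-). A count of 0 allows up to 3 counts, or 0.0699 to 0.144 CPM depending on the library. Flt3, encoding FLK2, was at 1.16 to 4.78 CPM in NEO1+ libraries and at 0 to 30.0 CPM in NEO1- libraries. Levels of different genes can be compared only per length, here as CPM per kilobase of merged exon in GENCODE M21. Merging joins the exons of all annotated transcripts of a gene, and which of these the cells use was not measured. On that scale Cd34 had a mean level of 11.2 over the 10 libraries, Cd48 2.15 and Flt3 1.30, whereas Slamf1, which belongs to the positive gate, was at 12.7. Per length, Slamf1 was above Cd34 in 3 of 5 NEO1+ and in 1 of 5 NEO1- libraries. It was level with Cd34 (within 1%) in NEO1+ library 5. With these lengths, the transcripts of a protein sorted for and of a protein sorted against were thus not separated. The ratio of Slamf1 to Cd34 per length was 0.869 to 2.38 in NEO1+ and 0.803 to 1.23 in NEO1- libraries, which overlap.

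The second group comprises 3 receptors and adhesion proteins shared with blood vessels. Procr encodes the endothelial protein C receptor (EPCR), an MHC-like protein that binds protein C. NEO1+ libraries 1 to 5 had 109, 124, 152, 121 and 128 CPM, and NEO1- libraries 1 to 5 had 172, 159, 134, 145 and 98.1 CPM. Of the NEO1+ libraries, 4 of 5 lay below the NEO1- mean, but NEO1- library 5 was the lowest of all 10. The resulting log2 fold change was -0.16 (SE 0.15, adjusted p 0.960).

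Esam encodes an adhesion molecule of endothelial junctions and platelets with immunoglobulin domains. NEO1+ libraries 1 to 5 had 186, 161, 187, 187 and 177 CPM, and NEO1- libraries 1 to 5 had 161, 169, 95.1, 148 and 178 CPM. NEO1- library 3 stood apart below all the others. With it, NEO1- libraries were at 150 ± 32.6 CPM (SD, n = 5), and without it at 164 ± 12.5 CPM (SD, n = 4). The NEO1+ libraries were at 180 ± 11.2 CPM (SD, n = 5), all above the NEO1- mean. This gave a log2 fold change of 0.26 (SE 0.15, adjusted p 0.850) and 0.13 without NEO1- library 3 (adjusted p 0.866).

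Eng encodes endoglin, a co-receptor for ligands of the TGF-beta and BMP family. It averaged 433 ± 39.3 CPM (NEO1+) against 395 ± 42.2 CPM (NEO1-) (SD, n = 5 each), ranging from 367 to 469 CPM and from 342 to 443 CPM. Of the NEO1+ libraries, 4 of 5 lay above the NEO1- mean and library 4 below it. This left a log2 fold change of 0.13 (SE 0.10, adjusted p 0.905). Endothelial cells carry these 3 proteins too, so their other markers were read. Of 10 such markers, 3 had 0 counts in all 10 libraries, among them Cdh5, which encodes the defining endothelial cadherin. Of the 4 tested, Cldn5, a claudin of tight junctions that is named after its values were seen, reached an unadjusted p of 0.0103 (adjusted p 0.550), at 21.9 ± 7.33 CPM (NEO1+) against 5.96 ± 4.28 CPM (NEO1-) (SD, n = 5 each), with no overlap. With NEO1+ higher, 3.11% of all genes tested had an unadjusted p under 0.05 and 1.35% had no overlap. The summed level of the 10, most of it from Egfl7, was 116 to 156 CPM (NEO1+) against 90.2 to 158 CPM (NEO1-). Egfl7 was the only 1 of the 4 tested with a log2 fold change below 0 (-0.20). The other 3 lay above 0, and the median was 1.19, against 0.01 over all genes tested. Of 10 stromal and bone markers, which bear on Alcam and Eng, Lepr, Col3a1 and Bglap had 0 counts throughout, and their sum was 24.6 to 67.6 CPM and 16.7 to 56.8 CPM. Of these 10, 4 were tested, 3 with a log2 fold change above 0 and 1 below (median 0.59). None of the 4 reached an unadjusted p under 0.05. The ranges of both sums overlapped between groups, and their part in the levels of Procr, Esam, Eng and Alcam was not tested.

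Esam is also carried by platelets, and all 12 megakaryocyte and platelet markers listed were tested. None passed the adjusted threshold. At an unadjusted p under 0.05, 4 had the higher mean in NEO1+ (3.11% of all genes tested did) and 0 the lower (3.49%). Of the 4, 2 had groups without overlap, as held for 1.35% of all genes tested with NEO1+ higher. These were Clu (109 ± 17.1 CPM in NEO1+, 32.2 ± 11.3 CPM in NEO1-, adjusted p 0.0526) and Selp (35.2 ± 7.70 CPM in NEO1+, 8.18 ± 3.99 CPM in NEO1-, adjusted p 0.140; SD, n = 5 each). The others were Vwf (101 ± 24.2 CPM in NEO1+, 58.9 ± 12.9 CPM in NEO1-, adjusted p 0.368; SD, n = 5 each) and Itga2b. Clu, Selp and Vwf are named after their values were seen. Of the 12, 7 had a log2 fold change above 0 and 5 below, with a median of 0.16. Those below were Pf4, Ppbp, Gp9, Gp1ba and Gp5. The platelet genes Gp1bb (1.89, SE 1.20) and Treml1 (0.26, SE 0.73) were among those above. The 12 summed to 1029 to 1254 CPM (NEO1+) against 893 to 1164 CPM (NEO1-), and their part in the level of Esam was not tested.

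Cd27 encodes a receptor of the tumour necrosis factor family that is carried by lymphocytes and by stem and progenitor cells, and whose ligand is CD70. NEO1+ libraries 1 to 5 had 57.1, 69.5, 59.2, 52.8 and 55.7 CPM. NEO1- libraries 1 to 5 had 76.7, 104, 71.8, 76.9 and 61.3 CPM. All 5 NEO1+ libraries lay below the NEO1- mean of 78.1 CPM, and the groups overlapped through NEO1+ library 2 and NEO1- library 5 alone. Without NEO1+ library 2 the groups of Cd27 did not overlap, as held for 3.43% of all genes in those libraries, and without NEO1- library 5 likewise, as held for 4.52%. Over all 10 libraries the log2 fold change was -0.41 (SE 0.17, 95% interval -0.77 to -0.04), with an unadjusted p of 0.0313 and an adjusted p of 0.691. Across the 20 alternatives it ran from -0.48 to -0.28, and the adjusted p from 0.143 to 0.9998. The unadjusted p ran from 0.0141 to 0.164. It missed 0.05 with limma-voom, with genes detected added as a covariate, without NEO1+ library 1, 3, 4 or 5, without NEO1- library 2, and without library 4 of both groups.

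Over the 10 libraries, the log2 CPM of Cd27 was most like that of Rpl27a, which encodes a protein of the large ribosomal subunit. Among 8990 genes with a mean of at least 10 CPM, Rpl27a had a Pearson r of 0.985 with it, as a description over libraries that share these groups and scaling. The gene was picked for this likeness over the same libraries, so its values are a description only. Rpl27a averaged 109 ± 6.84 CPM (NEO1+) against 141 ± 22.4 CPM (NEO1-) (SD, n = 5 each), with a log2 fold change of -0.37 (SE 0.13, adjusted p 0.584). Ribosomal protein genes have processed copies elsewhere in the genome with which they can share reads. For Slamf1 the 2 most similar genes were Hmgb3 (r 0.919) and Kcnip3 (r 0.859). For Esam they were Ralgapb (r 0.961) and Gadd45g (r 0.958), both of which were, like Esam, lowest in NEO1- library 3, at 0.271 and 0.474 CPM.

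Cd81 and Cd82 encode tetraspanins, which span the membrane repeatedly and gather receptors and integrins into patches. Cd81 averaged 423 ± 30.5 CPM (NEO1+) against 404 ± 35.6 CPM (NEO1-) (SD, n = 5 each), between 362 and 457 CPM over all 10. It was the steadiest of the markers: its highest library was 1.26-fold above its lowest. Its log2 fold change was 0.07 (SE 0.09, adjusted p 0.994). Cd82 averaged 80.9 ± 8.34 CPM (NEO1+) against 84.7 ± 17.1 CPM (NEO1-) (SD, n = 5 each). NEO1- libraries 1, 2 and 5 were at 97.9, 98.0 and 94.7 CPM, above every NEO1+ library, and NEO1- libraries 3 and 4 were at 61.5 and 71.2 CPM, the first below all and the second near the lowest of them. NEO1- libraries thus fell on both sides of the NEO1+ range of 70.7 to 91.5 CPM, and the log2 fold change was -0.07 (SE 0.17, adjusted p 0.998).

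Alcam encodes CD166, an adhesion molecule of the immunoglobulin superfamily that is also found on stromal cells of the marrow. NEO1+ libraries 1 to 5 had 22.6, 31.4, 31.4, 4.08 and 24.9 CPM. NEO1- libraries 1 to 5 had 60.4, 4.73, 40.1, 18.3 and 17.4 CPM. Each group held a library with very little Alcam, NEO1+ library 4 with 134 counts and NEO1- library 2 with 101 counts. As a share of all counts these made 4.57 per M (95% Clopper-Pearson interval 3.83 to 5.41) and 4.12 per M (3.36 to 5.01), so counting error was small beside the 14.8-fold range. The libraries carried no molecular identifiers, and such intervals cover counting error only. Between groups the log2 fold change was -0.30 (SE 0.61, adjusted p 0.998). It turned positive without NEO1- library 1, at 0.18 (SE 0.60), so its sign rested on that library, and lay at -0.03 without NEO1+ library 4 and -0.57 without NEO1- library 2.

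Windows of 250 bases before the RefSeq start sites (GRCm38.p6) are shown for the steadiest and the most variable marker, with CG dinucleotides in capitals, on the strand of the gene. The letters CG read the same on both strands.
Cd81, chr7:143052500-143052749, plus strand: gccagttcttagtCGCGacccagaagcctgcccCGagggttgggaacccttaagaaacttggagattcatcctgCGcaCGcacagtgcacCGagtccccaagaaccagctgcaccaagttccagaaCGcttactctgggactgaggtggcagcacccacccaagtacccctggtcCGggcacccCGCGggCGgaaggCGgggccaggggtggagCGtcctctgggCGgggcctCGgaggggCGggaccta
Alcam, chr16:52453082-52453331, minus strand: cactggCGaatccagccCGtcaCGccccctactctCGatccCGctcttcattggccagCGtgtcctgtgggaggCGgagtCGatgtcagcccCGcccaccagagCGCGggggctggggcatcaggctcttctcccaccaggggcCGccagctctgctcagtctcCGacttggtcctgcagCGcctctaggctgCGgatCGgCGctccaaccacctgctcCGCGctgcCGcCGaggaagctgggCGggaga
The Cd81 window held 16 CG and the Alcam window 22, against a median of 6 over all 32851 windows, of which 92.1% held at least 1. Of all windows, 25.4% held as many as that of Cd81 or more, and 14.8% as many as that of Alcam or more. Both of these markers thus had start sites rich in CG, although their spread between libraries lay at opposite ends of the 10. RefSeq windows were found for 8 of the 10 markers, the exceptions being Esam and Ly6a, and held 3 to 22 CG. The windows describe sequence only, since no binding or methylation was measured.

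Per length, the order of the markers was nearly the same in every library. Ly6a had a mean of 151 CPM per kilobase over the 10 libraries and Cd81 of 144. These 2 shared the first and second place in every library, each leading in 5 of 10, and their ranges overlapped. Eng followed at 102, below both in all 10 libraries. Procr at 66.1 and Esam at 57.5 held the next places, with Procr above Esam in 7 of 10 libraries. Cd27 at 29.4 and Cd82 at 27.5 came next, each above the other in 5 of 10 libraries. Slamf1 and Cd34 came below them and Alcam was last in all 10 libraries, at 3.59. The order within a library thus changed only between the neighbours Ly6a and Cd81, Procr and Esam, Cd27 and Cd82, and Slamf1 and Cd34. Cd81 was above Eng, Eng above Procr, Esam above Cd27, Cd82 above Slamf1 and Cd34 above Alcam in all 10 libraries, although for Eng and Procr, Esam and Cd27, and Cd34 and Alcam the ranges over libraries overlapped. Ly6a, Cd81, Eng, Procr and Esam stood above at least 95.3% of 12009 tested genes with a single GENCODE entry, and Alcam above 38.6%.

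**Figure D3:**
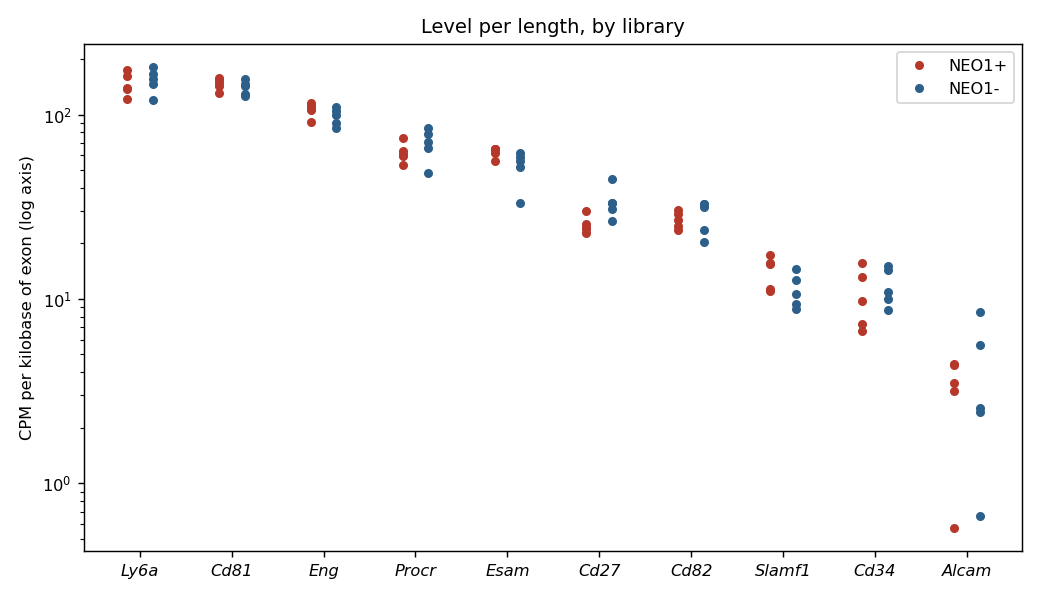
Level of each marker per length (CPM per kilobase of merged exon, log axis), with 5 NEO1+ libraries in red and 5 NEO1- libraries in blue, ordered by the mean over all 10. Ly6a and Cd81 lie highest and Alcam lowest in every library, and the ranges of the groups overlap for each gene.

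The spread within groups was larger in NEO1- than in NEO1+ libraries for 9 of the 10 markers, Cd34 being the exception. This was also so for 78.3% of all genes tested, whose median SD of log2 CPM was 0.64 in NEO1- and 0.40 in NEO1+ libraries, so the share among markers was near that of genes in general. Cd81 (0.11 in NEO1+ and 0.13 in NEO1-) and Eng (0.14 and 0.16) varied little in both groups. Of the 10, Esam had the largest contrast, with 0.09 in NEO1+ and 0.36 in NEO1- libraries, which became 0.11 without NEO1- library 3. Alcam varied most, with 1.24 and 1.40. Among 2207 genes within 0.5 log2 units of its mean level, 4.76% had a larger SD within groups. For Cd81 this share was 89.5% of 162 genes, for Cd27 88.4% of 2129 and for Cd34 18.2% of 1826.

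**Figure D4:**
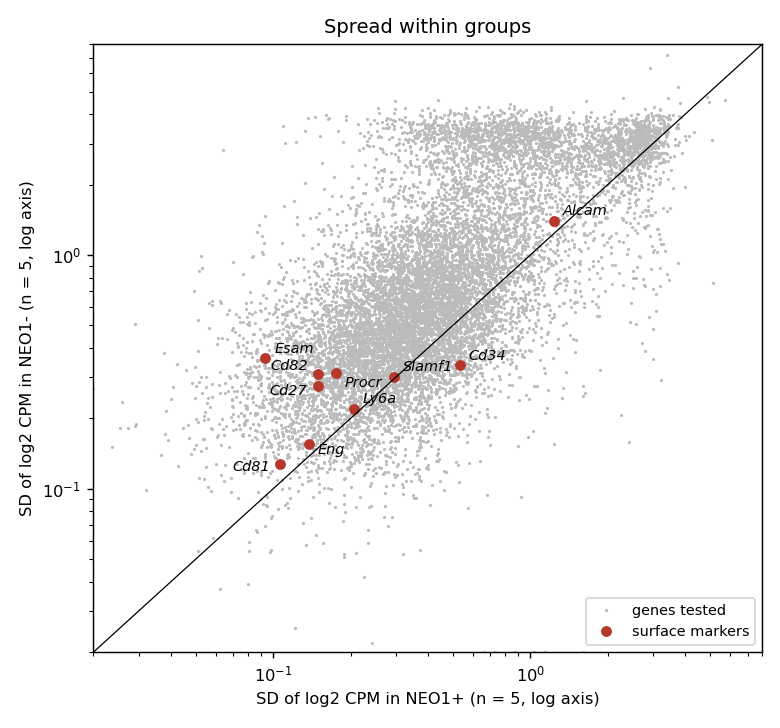
SD of log2 CPM within NEO1+ (horizontal, log axis) and within NEO1- libraries (vertical, log axis) for each gene tested (grey) and each marker (red), with the line of equal spread. All markers but Cd34 lie above the line, as do 78.3% of all genes.

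Other surface genes used to describe stem cells were read from a list of 32 symbols, of which 28 were tested. None passed the adjusted threshold. At an unadjusted p under 0.05, 3 had the higher mean in NEO1+ (3.11% of all genes tested did) and 2 the lower (3.49%), and the median log2 fold change was 0.02, against 0.01 over all genes. The 3 were Tek, the angiopoietin receptor TIE2 (42.9 ± 9.58 and 15.1 ± 4.52 CPM, adjusted p 0.155), Jam3, a junctional adhesion molecule (56.3 ± 5.54 and 36.9 ± 13.7 CPM, adjusted p 0.687), and Itga2b, the integrin CD41 (55.1 ± 16.0 and 36.9 ± 10.2 CPM, adjusted p 0.747; SD, n = 5 each, NEO1+ first). The 2 were Cd63, a tetraspanin of late endosomes (392.4 ± 20.6 and 457 ± 53.6 CPM, adjusted p 0.705), and Cd164, a sialomucin (203 ± 35.5 and 250 ± 25.9 CPM, adjusted p 0.709; SD, n = 5 each). Of these 5, Tek alone had groups that did not overlap, at 32.7 to 55.3 CPM (NEO1+) against 8.90 to 20.2 CPM (NEO1-). This held for 1.35% of all genes tested with NEO1+ higher.

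The markers were also placed within their families. Of 23 tetraspanin genes, 21 were tested, 10 with a log2 fold change above 0 and 11 below, with a median of -0.02, and 0 passed. At an unadjusted p under 0.05, 1 had the higher mean in NEO1+ (3.11% of all genes tested) and 2 the lower (3.49%). The lower were Cd63 and, named after its values were seen, Cd37, a leukocyte tetraspanin, at 25.8 ± 3.88 CPM (NEO1+) against 49.8 ± 10.7 CPM (NEO1-) (SD, n = 5 each; log2 fold change -0.95, adjusted p 0.264). The higher was Tspan12, likewise named after its values were seen, at 3.13 to 14.4 CPM (NEO1+) against 0 to 0.364 CPM (NEO1-) (adjusted p 0.369). Of the 10 symbols of the SLAM family, 5 were tested and 0 reached an unadjusted p under 0.05. Of the 12 Ly6 genes, 3 were tested, with 0 reaching it. Of 20 surface genes listed for multipotent and committed progenitors, 10 were tested and 0 reached it. Of the 10, 7 had a log2 fold change above 0 and 3 below, with a median of 0.37. Stem cells may carry some of the listed genes too, so this median does not stand for progenitors alone.

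The sign of the difference was the same under all 20 alternatives for 9 of the 10 markers, and 0 of the 10 passed an adjusted p of 0.05 under any of them. Alcam was the exception in sign, at 0.18 without NEO1- library 1 and at 0.48 with genes detected added as a covariate.

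**Figure D5:**
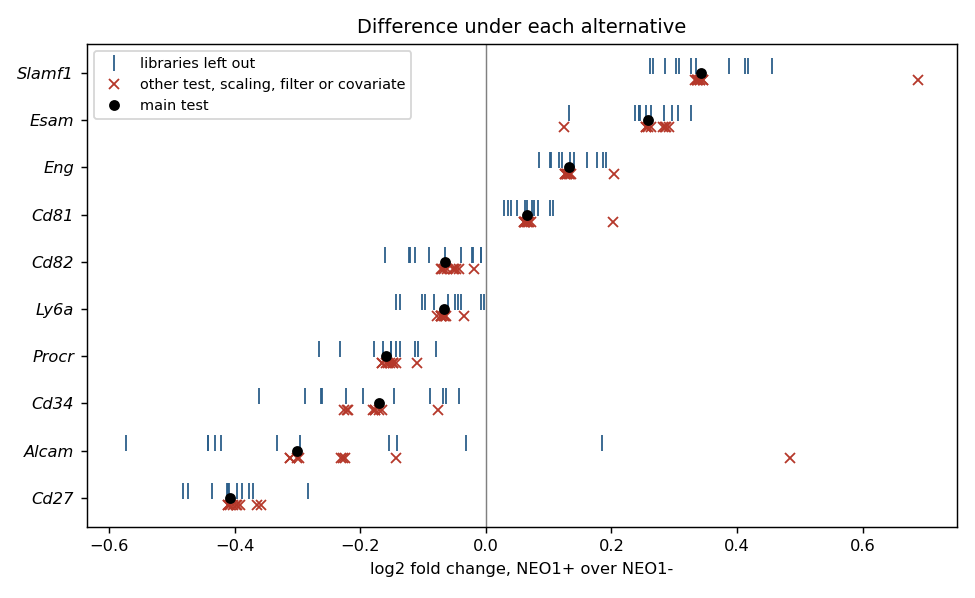
Log2 fold change of NEO1+ over NEO1- for each marker in the main edgeR test (black), with libraries left out (blue) and with another test, scaling, filter or covariate (red). Points stay on one side of 0 for every marker but Alcam, and the covariate moves Slamf1 to 0.69.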

How the data were processed

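The authors deposited raw counts per gene symbol for 10 libraries, together with log2 values that, per the file headers and values, are log2 of the count over 1 constant per library, plus 1 (largest residual 5.2e-14). Per the labels' protocols, oligo-dT primed Smart-seq2 cDNA was amplified for 18 cycles, and 40 ng was tagmented with a Nextera kit. STAR 2.4, DESeq2 1.22.2 and build mm10 are named in the submitters' processing notes; the counting tool, its annotation and its use of strand are not given in the sources used here. Reads of Eng, Cd81 and Cd34 could therefore include reads of Fpgs, R74862 and Gm16897, genes on the other strand that share 61, 104 and 148 exonic bases with them in GENCODE M21 (GRCm38, the build mm10). Cd27 shares 129 exonic bases (5.54% of its exons) with Mir8113 on the same strand. Reads there could be dropped or assigned to Mir8113 whatever the use of strand. Mir8113 itself had at most 0.0233 CPM in any library. Exact locations of the markers on that build are chr15:74994877-74998031 for Ly6a, chr1:171767127-171801184 for Slamf1, chr1:194938819-194961279 for Cd34, chr2:155751117-155755471 for Procr, chr9:37528078-37538319 for Esam, chr2:32646595-32682669 for Eng, chr6:125232622-125237010 for Cd27, chr7:143052739-143067934 for Cd81, chr2:93419111-93463140 for Cd82 and chr16:52248996-52454074 for Alcam.

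Counts were tested over all genes with the edgeR 4.0.16 quasi-likelihood test in R 4.3.3 (filterByExpr, TMM, robust), adjusted by Benjamini-Hochberg over 12203 genes, with a threshold of 0.05. The SE was taken as |log2 fold change| divided by the root of the F statistic, and log2 CPM uses a prior count of 2. Counting error (95% Clopper-Pearson half-width) was 1.42% to 5.94% of the value for 9 markers and up to 20.0% for Alcam. Alternatives used DESeq2 1.42.0, limma 3.58.1 (voom, and trend on the deposited log2 values), other scaling and filters, the replicate number, genes detected, and libraries left out. The code was checked on simulated data with 200 changed genes, drawn from genes with a mean of at least 10 CPM. Each gene kept its own dispersion. The edgeR test recovered 52 of them (26%) at a 2-fold change and 170 (85%) at a 4-fold change. Most 2-fold changes of genes drawn in this way would thus be missed at this threshold. Recovery was not read for the markers apart. For 9 of the 10 markers the 95% interval lay within a 2-fold change. Markers and lists were chosen with earlier results of these data known. Genes named were the markers, the gate genes, the 2 genes most like each of the 3 markers of smallest p, and surface genes of the lists with an unadjusted p under 0.05. A gene named by this rule is not reported here.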

Additional observations from a re-analysis of the deposited data

Results flagged for a closer look

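Log2 CPM of the 10 markers and of 5 other gate genes gave 30 groups of 5 values. In 4 of them the lowest library lay farther from the rest than Dixon's 95% limit allows, where chance gives about 1 in 20 groups, or 1.5. For Esam this was NEO1- library 3, with 6.57 log2 CPM and 2807 counts, the rest of its group lying between 7.21 and 7.47. For Alcam it was NEO1+ library 4, with 2.05 log2 CPM where the rest lay between 4.50 and 4.98. The same library was lowest for Neo1, with 3.65 log2 CPM where the rest lay between 5.61 and 6.02. For Flt3 it was NEO1+ library 5, with 0.29 log2 CPM where the rest lay between 1.87 and 2.27.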

How the results depend on the processing

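Over the 10 markers and 20 alternatives, 198 of 200 log2 fold changes kept their sign and stayed short of the threshold. The other 2 were those of Alcam, at 0.48 with genes detected as a covariate and at 0.18 without NEO1- library 1; leaving out 1 library moved it between -0.57 and 0.18. Over all genes, edgeR called 0 (806 at an unadjusted p under 0.05). The count was 2 without a filter on low counts, 146 with DESeq2, 742 with DESeq2 and the replicate block, 2 with limma-voom and 1 with limma-trend on deposited log2 values. It ran from 0 to 1 when 1 library was left out, the 1 being without NEO1- library 1. None of these calls was a marker. The number of markers without overlap between groups was 0 to 1 when 1 library was left out, the 1 being Cd27 without NEO1+ library 2 or NEO1- library 5, while the share of all genes without overlap rose from 2.48% to between 3.23% and 4.52%. The number with the larger spread in NEO1- was 6 to 9, against 70.9% to 80.8% of all genes. The median log2 fold change of all genes moved from 0.01 to 0.12 with limma-voom and to 0.11 with limma-trend. The labels number both groups 1 to 5 without saying what a number shares. Deviations from the group means of same-numbered libraries correlated at 0.0040 to 0.036, and 3 of 5 NEO1+ libraries correlated best with their own number. With the replicate block edgeR called 0 genes and 0 markers, and the block changed no call on a marker. For 5 of 10 markers the 95% interval still held a 1.5-fold difference, so with 5 libraries a group these data leave room for one.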

Other observations

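Several ligands of the marker proteins had no counts in these libraries. Cd70, which encodes the ligand of CD27, and Proc and Gdf2, which encode protein C and a ligand of the endoglin complex, had 0 counts in all 10 libraries, which allows up to 0.0699 to 0.144 CPM depending on the library. Of 25 ligands and partners of the markers, 15 were tested and 0 reached an unadjusted p under 0.05, with a median log2 fold change of 0.14 against 0.01 over all genes.

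Of 12 lymphoid markers, Igll1, Cd3e and Cd8a had 0 counts in all 10 libraries, and the list summed to 40.9 to 59.6 CPM (NEO1+) against 35.4 to 85.7 CPM (NEO1-). The summed level of 14 granulocyte and monocyte markers was 493 to 5168 CPM (NEO1+) against 382 to 3082 CPM (NEO1-), and none of the 11 tested reached an unadjusted p under 0.05. Hoxb5, the reporter gene of the gate, was at 2.45 to 4.91 CPM (NEO1+) against 0 to 2.43 CPM (NEO1-). Its groups thus did not overlap, as held for 1.35% of all genes tested with NEO1+ higher. The gap lay between NEO1+ library 1 (51 counts) and NEO1- library 4 (80 counts), and was small beside counting error at such counts. Its log2 fold change of 1.26 (SE 1.26) did not pass (edgeR adjusted p 0.966).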
